A study of Rousettus aegyptiacus with 32 samples.

Results

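Open chromatin in testis was compared with open chromatin in pectoralis muscle of the Egyptian fruit bat, Rousettus aegyptiacus. The comparison uses 4 of the 32 libraries of the study, all 4 from ATAC-seq: testis and muscle of bat 1, and testis and muscle of bat 3. The members were chosen by tissue label alone. The study looked at regulatory elements and proteins in relation to vocal learning, and its 20 ATAC-seq libraries cover 10 tissues of these animals. Both bats were adult males, no treatment or genotype is named in the labels, and each sample was bulk tissue. Each tissue therefore had 1 library per animal, 2 in all. The labels name no RNA library of testis or muscle.

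ATAC-seq maps DNA that a transposase can reach, which is mostly promoters, enhancers and other elements from which nucleosomes have been displaced. Testis is a mixture of germ cells at all stages of sperm formation with Sertoli, Leydig and peritubular cells, and its chromatin is rebuilt during meiosis and again when sperm DNA is packed. Skeletal muscle consists mainly of multinucleate fibres that express contractile genes, together with satellite cells, fibroblasts and cells of the vessels. In bulk tissue a region missing from a peak list can be closed in most cells or open in few of them, and these cannot be told apart. The tissue labels could not be checked against marker genes, because the gene table at hand (36769 genes) places 0 genes on a scaffold, so the regions are given by position alone.

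A peak list holds intervals, each with a fold enrichment over the caller's background and a -log10 p. The 50000 intervals with the highest -log10 p were taken from each of the 4 libraries, and rank 1 is the strongest. Lists of the same length put ranks on a common scale, although a rank still depends on what else its list holds. Folds are the caller's own and have no scaling between libraries. The weakest interval kept had a -log10 p of 7.57 in testis of bat 1, 6.11 in testis of bat 3, 5.65 in muscle of bat 1 and 9.09 in muscle of bat 3. The median width was 511, 408, 397 and 721 bases in the same order, and the median fold was 3.59, 4.12, 3.7 and 6.08. Muscle of bat 3 stood apart, with the highest value in each of these measures, although its highest single fold was 31.6, against 42.6 to 44.2 elsewhere. Of its intervals, 69.8% had more than 1 summit, against 36.4% to 47.9% in the other 3 libraries. The number of reads behind each list is unknown.

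Overlapping intervals of the 4 libraries were merged into 108398 regions, and tissue divided them far more than animal did. Both testis libraries and neither muscle library held 11007 regions (10.2% of all regions), called testis-only below. Both muscle libraries and neither testis library held 12838 (11.8%), called muscle-only. When the same 4 libraries were divided by animal, 1228 regions (1.13%) were in both libraries of bat 1 alone and 567 (0.523%) in both of bat 3 alone. The crossed division gave 816 (0.753%) for testis of bat 1 with muscle of bat 3 and 665 (0.613%) for testis of bat 3 with muscle of bat 1. All 4 libraries shared 15345 regions (14.2%), 6512 were in 3 libraries, and 59420 were in 1 library only. With 2 libraries against 2, an exact 2-sided permutation test cannot go below p = 0.333, so these counts carry no p. A tissue represented by 1 library gains the regions of that library alone: the testis-only count was 28379 without testis of bat 1 and 26767 without testis of bat 3, and the muscle-only count was 28274 without muscle of bat 1 and 25884 without muscle of bat 3. Which tissue had more regions of its own depended on the setting. The testis-only count was the higher with the 100000 strongest intervals (19128 against 17997). It was also the higher with a reciprocal overlap of 50% (10140 against 8931), which counts intervals of bat 1 and not merged regions. There a smaller overlap counted as absence. Median widths differed more between the muscle lists (397 and 721 bases) than between the testis lists (511 and 408), and the part of this was not tested.

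**Figure D1:**
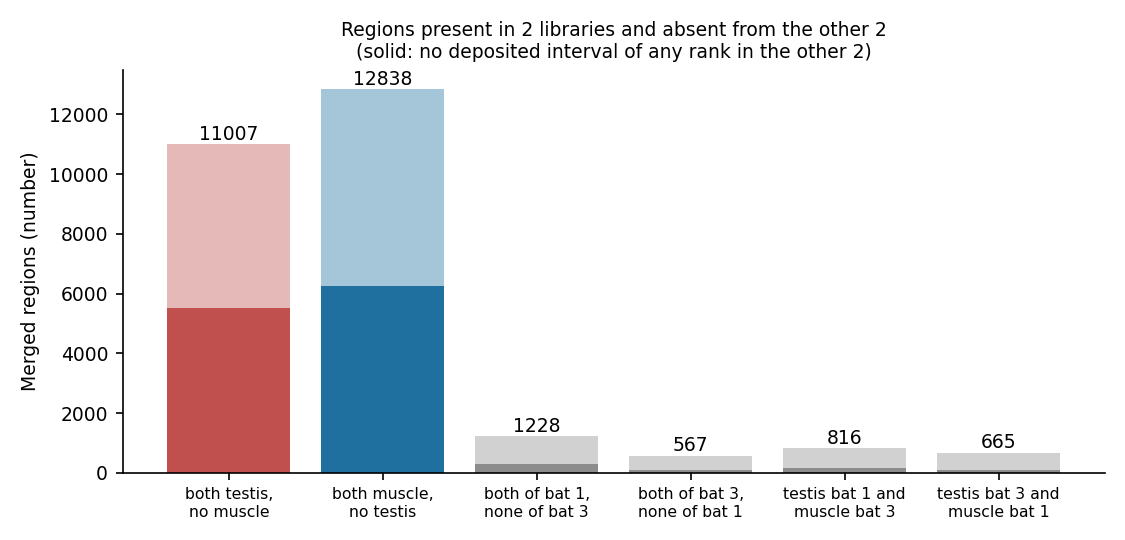
Number of merged regions (vertical axis) present in 2 of the 4 libraries and absent from the other 2, for each of the 6 ways to choose the 2 libraries. Pale bars count absence from the 50000 strongest intervals and solid bars absence of any deposited interval; the 2 tissue bars reach 11007 and 12838, while the highest of the other 4 is 1228.

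Part of this division was between strong and weak intervals and not between an interval and none. Of the testis-only regions, 5528 (50.2%) overlapped no deposited muscle interval of any rank, 3742 overlapped a weaker one in 1 muscle library and 1737 in both. Of the muscle-only regions, 6267 (48.8%) overlapped no deposited testis interval, 4110 overlapped a weaker one in 1 testis library and 2461 in both. Under the same demand the division by animal kept 288 of 1228 regions for bat 1 and 101 of 567 for bat 3. The deposited lists reach down to a -log10 p of 2, except testis of bat 1, which ends at 2.8. All of these counts fell, and the counts by animal fell to a smaller share of their former number.

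The base pairs covered by the lists gave the same order. The Jaccard index, the bases covered by both lists over those covered by either, was 0.437 for the 2 testis libraries and 0.438 for the 2 muscle libraries. Testis and muscle of the same animal shared 0.297 in bat 1 and 0.222 in bat 3, and the crossed pairs shared 0.244 (testis of bat 1 with muscle of bat 3) and 0.283. The same-animal values lie on both sides of the crossed ones, so they were not ordered by animal.

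The strongest intervals were open in both tissues, and the tissues parted further down the lists. Of the 1000 strongest testis intervals of bat 1, 99.8% overlapped an interval of muscle of the same animal, and of those of bat 3, 99.6% did. Between ranks 10001 and 20000 this fell to 54.4% in bat 1 and 46.9% in bat 3, while 81.4% and 85.5% were still found in testis of the other animal. Between ranks 40001 and 50000, 24.3% and 26.4% were found in the other testis library, so most of the weakest intervals were not shared even within a tissue. Muscle of bat 1 followed the same course, with 100% of its 1000 strongest intervals in testis of bat 1 and 57.3% between ranks 10001 and 20000. Muscle of bat 3 parted from testis much earlier. Of its intervals after rank 1000 and up to rank 5000, 73.9% were found in testis of bat 3, against 96.0% to 98.0% for the same comparison in the other 3 libraries.

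**Figure D2:**
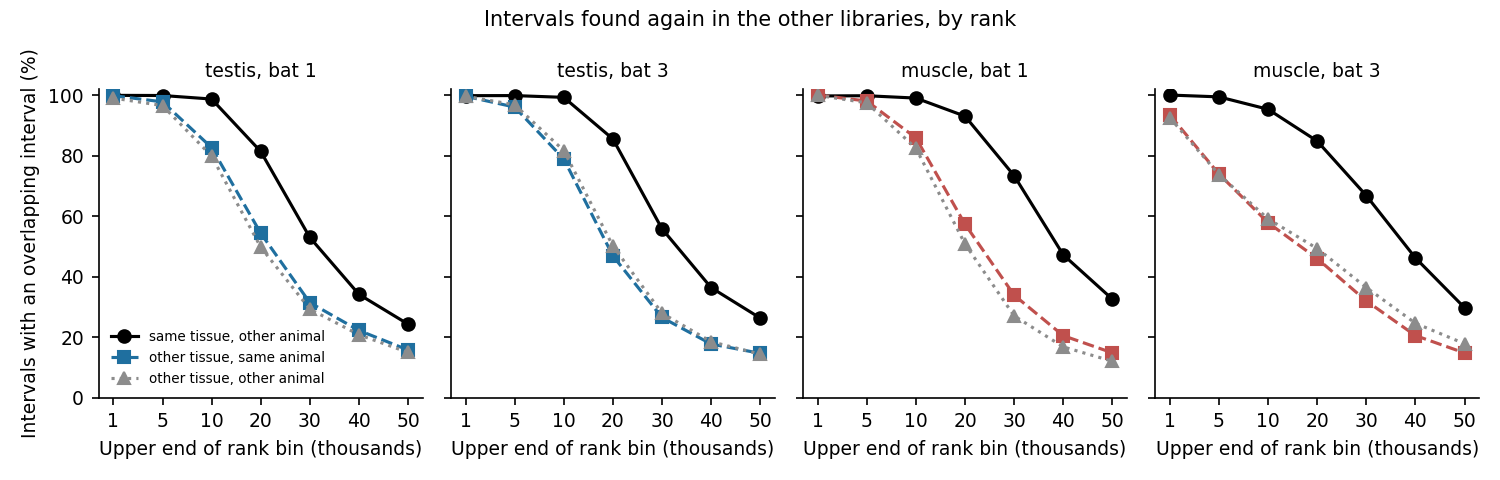
Percentage of a library's intervals (vertical axis) that overlap one of the 50000 strongest intervals of another library, by rank bin (horizontal axis, labelled by the upper end of the bin in units of 1000), with 1 panel per library. Black circles show the same tissue of the other animal, squares the other tissue of the same animal and triangles the other tissue of the other animal; the black line lies above the other two from rank 5001 on in every panel.

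Tissue-only regions were narrower and weaker than those of all 4 libraries. Part of this follows from the rule, since the same -log10 p gives the ranks and the cut that makes the classes. A region near the cut drops out of a list more easily, and interval width fell down the list in every library. The merged width had a median of 674 bases for testis-only regions (quartiles 452 and 1024.5), 760 for muscle-only regions (542 and 1006) and 1197 for regions of all 4 libraries (874 and 1522). Merged width adds up over libraries, and within single libraries the testis-only regions covered a median of 596 bases in bat 1 and 474 in bat 3. Muscle-only regions covered 390 bases in bat 1 and 738 in bat 3. Which tissue has the wider tissue-only regions therefore depended on the animal. Regions of all 4 libraries covered a median of 871 and 740 bases in testis and 839 and 1081 in muscle (bat 1 and bat 3). With 1 library for the tissue, the merged median was 340 bases for testis-only regions without testis of bat 1, 435 without testis of bat 3, and 302 for muscle-only regions without muscle of bat 3.

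Rank and fold followed width, and the same limit holds for them. Testis-only regions had a median rank of 24397.5 in bat 1 and 22644 in bat 3, with median folds of 3.7 and 4.24. Muscle-only regions had a median rank of 26156.5 in bat 1 and 21656.5 in bat 3, with median folds of 3.58 and 6.54. The regions of all 4 libraries had median ranks of 8458 and 8535 in testis and 8365 and 12407 in muscle (bat 1 and bat 3). Regions of a single animal sat lower, at median ranks of 32502.5 (testis) and 33265.5 (muscle) for those of bat 1 and 33536.5 and 36903 for those of bat 3. Strong tissue-only regions were few: 54 of 11007 testis-only and 44 of 12838 muscle-only regions were among the 5000 strongest of both their libraries. The numbers were 5 of 1228 for bat 1, a similar share at this cut, and 0 of 567 for bat 3. The shares differed among the 10000 strongest of both libraries. There the numbers were 468 testis-only and 457 muscle-only regions, against 7 for bat 1 and 1 for bat 3. Of the 15345 regions of all 4 libraries, 2166 were among the 5000 strongest of every one.

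The 6 strongest testis-only regions without any deposited muscle interval were taken by the weaker of their 2 ranks. The first lies on scaffold NW_023416292.1 at bases 23792756 to 23793665, at rank 1834 in bat 1 (8.74-fold) and 903 in bat 3 (11.7-fold). Next came NW_023416291.1, bases 337864 to 338685, at ranks 1881 and 1989 (10.4- and 10.7-fold). The third, NW_023416310.1 from 33276 to 33832, had ranks 834 and 2104.5 (14.7- and 11.8-fold), near the first base of the scaffold. On NW_023416290.1, bases 7863266 to 7864065, the ranks were 1430 and 2634 (13.4- and 12-fold). A narrow region of 422 bases on NW_023416285.1, from 92670851 to 92671272, had ranks 2968 and 2137 (11.1- and 12.2-fold). The last, NW_023416306.1 from 83026695 to 83027622, had ranks 3021 and 3098 (11.8- and 11.2-fold). In the 16 libraries of the other 8 tissues, none of these 6 was among the 50000 strongest intervals. The region of NW_023416292.1 overlapped a weaker interval in 6 of those libraries, all of brain, 3 of the regions did so in 1 library and the other 2 in none.

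The 6 strongest muscle-only regions without any deposited testis interval were mostly wider, at 869 to 1372 bases against 422 to 928. On NW_023416295.1, bases 53785500 to 53786368 were at rank 3157.5 in bat 1 (10.1-fold) and 821 in bat 3 (13.7-fold). NW_023416310.1 from 25759998 to 25761322 had ranks 3557 and 268 (9.76- and 16.2-fold), with 5 summits in bat 3. NW_023416307.1 from 93654708 to 93656079 had ranks 3786 and 614 (8.59- and 14.3-fold). The others were on NW_023416284.1 from 81850923 to 81851943 (ranks 3924 and 3075), NW_023416308.1 from 92445317 to 92446424 (3948 and 1213) and NW_023416288.1 from 39050511 to 39051808 (4424 and 1063). In all 6 the rank was nearer the top in bat 3. All 6 overlapped some interval, mostly a weak one, in at least 1 library of the other tissues, and those of NW_023416284.1 and NW_023416288.1 did so in 12 and 13 of the 16. The 12 regions were chosen for their rank, and their values are a description.

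At the 15345 regions of all 4 libraries, ranks were alike within a tissue and less so between tissues. Across these regions the Spearman correlation of ranks was 0.895 between the 2 testis libraries and 0.77 between the 2 muscle libraries. Testis and muscle correlated at 0.74 in bat 1 and 0.564 in bat 3, and at 0.588 and 0.713 in the crossed pairs. These are correlations across regions, which are not independent, and all ranks are at most 50000 by construction. The 2 lowest values both involve muscle of bat 3.

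Widths at the shared regions followed the library more than the tissue. Testis intervals covered more bases than muscle intervals at 54.1% of the regions in bat 1 (median log2 ratio 0.03) and at 14.1% in bat 3 (median log2 ratio -0.49). The animals differed in opposite directions, with the bat 1 interval wider at 71.9% of the regions in testis and at 15.2% in muscle.

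Some shared regions ranked differently in the 2 tissues. Testis had the 2 better ranks at 5011 regions (32.7% of the 15345) and muscle at 3342 (21.8%), whereas bat 1 had them at 2701 (17.6%) and bat 3 at 896 (5.84%). In limma's test on log2 rank, adjusted over all 15345 regions (Benjamini-Hochberg), 425 passed an adjusted p of 0.05 (2.77%), of which 227 (1.48%) ranked higher in testis and 198 (1.29%) higher in muscle. Divided by animal, limma gave 0 calls (0%), with 119 regions at an unadjusted p under 0.05 against 3521 for tissue, but that fit leaves the tissue difference in its residual. With the tissue as a block, 18 regions were called between the animals and 773 had an unadjusted p under 0.05. Over all regions tested, the log2 difference of muscle rank minus testis rank had a median of 0.21, so the called differences are to be read against that value. It was 2.74 in the median among regions called for testis and -2.98 among those called for muscle. The number of calls was fragile: with the animal as a replicate block it was 1207 (675 for testis and 532 for muscle), and with ranks taken among the 15345 regions alone, or from the 25000 strongest intervals, limma called 0 (3708 and 2300 at an unadjusted p under 0.05). It was 9 without testis of bat 1, 8 without testis of bat 3, 5183 without muscle of bat 1 and 1921 without muscle of bat 3, where the lone library is taken to vary like the pair of the other tissue.

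Of the regions called for testis, the one with the largest difference was on NW_023416306.1, bases 154579776 to 154581605. It had rank 60 in testis of bat 1 and 42 in testis of bat 3, against 3925 and 4422 in muscle, a log2 difference of 6.37 ± 1.02 (SE; limma adjusted p = 0.018). On NW_023416288.1, bases 25720857 to 25722290 were at ranks 113 and 107 in testis and 5357 and 13583 in muscle (6.28 ± 0.905, limma adjusted p = 0.018). In both regions the groups lay far apart in either animal. The next pair rested mostly on muscle of bat 3. NW_023416295.1 from 177579833 to 177580105 had ranks 145 and 80 in testis, 1181 in muscle of bat 1 and 41380 in muscle of bat 3 (6.02 ± 1.3, limma adjusted p = 0.0333). NW_023416306.1 from 4728 to 5116 had ranks 123 and 98 in testis, 873 in muscle of bat 1 and 36903 in muscle of bat 3 (5.69 ± 1.34, limma adjusted p = 0.0396). These regions are narrow, at 273 and 389 bases, and lie at scaffold ends, the former 24.2 kb short of the furthest interval on its scaffold.

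In the other direction, NW_023416311.1 from 66832446 to 66833510 had rank 1066 in muscle of bat 1 and 95.5 in muscle of bat 3, against 40874.5 and 22644 in testis. Its log2 difference was -6.58 ± 0.927 (SE; limma adjusted p = 0.018). NW_023416288.1 from 13544051 to 13545746 had ranks 44 and 30 in muscle and 1236 and 3187 in testis (-5.77 ± 1.16, limma adjusted p = 0.0273). NW_023416308.1 from 82639944 to 82640791 had ranks 493 and 207 in muscle and 10930 and 23849.5 in testis (-5.66 ± 0.776, limma adjusted p = 0.018). NW_023416291.1 from 25793899 to 25795138 had ranks 2999.5 and 75 in muscle and 34058 and 14883 in testis (-5.57 ± 1.26, limma adjusted p = 0.0396). Without testis of bat 1, 6 of these 8 regions did not pass the test, and without testis of bat 3, 5 did not. On centred log2 folds in place of ranks the difference was 1.9 and 1.71 at the 2 regions at scaffold ends and -0.14 at the region of NW_023416288.1 called for muscle, and none of the 3 passed. Testis and muscle ranks do not overlap at any of these 8 regions, which follows from how they were chosen. All 4 regions called for muscle were also among the 50000 strongest intervals of 14 to 16 of the 16 libraries of other tissues, as were the first 2 called for testis (15 and 16), whereas the 2 at scaffold ends were in 5 and 6.

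Muscle-only regions were often open in the brain and testis-only regions seldom were. Of the muscle-only regions, 6710 (52.3%) overlapped one of the 50000 strongest intervals of at least 1 of the 14 brain libraries, against 2190 (19.9%) of the testis-only regions. In single brain libraries the share ran from 22.4% (caudate of bat 3) to 31.1% (cerebellum of bat 1) for muscle-only regions and from 5.75% (caudate of bat 3) to 9.83% (wM1, the wing part of primary motor cortex, of bat 1) for testis-only regions. The ranges do not overlap. The brain lists covered 39 to 56.5 Mb and those of liver 13 and 16.9 Mb (bat 1 and bat 3), against 25.6 to 39.9 Mb in testis and muscle, and the part of this in the shares was not tested. Liver went otherwise in bat 1, with 11.3% of testis-only and 5.34% of muscle-only regions, and like brain in bat 3, with 10.4% and 17.2%. Liver of bat 1 had the lowest median fold of the 20 libraries (2.23). No strong interval was present in any of the 16 libraries at 65.6% of the testis-only and 40.9% of the muscle-only regions. With every deposited interval counted, 58.6% of the testis-only and 83.1% of the muscle-only regions had one in some brain library.

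Regions that separated the animals were mostly open elsewhere as well. Of the 1228 regions of bat 1 alone, 73.4% had a strong interval in some brain library, and of the 567 of bat 3 alone, 59.6%. The shared regions were open almost everywhere, since 97.6% had a strong interval in some brain library and 77.5% in all 14.

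**Figure D3:**
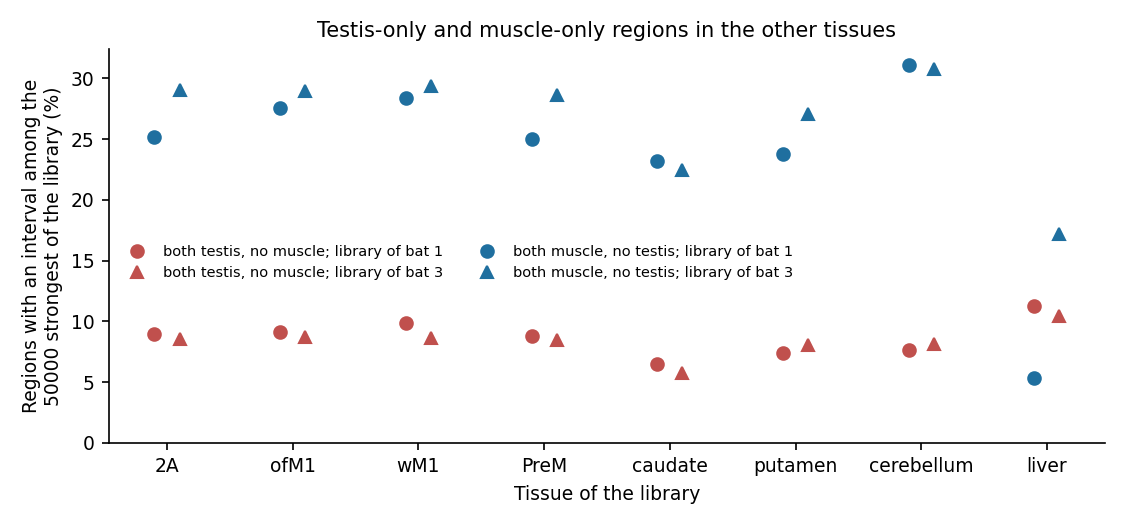
Percentage of testis-only (red) and muscle-only (blue) regions that overlap one of the 50000 strongest intervals of a library (vertical axis), for the 8 other tissues (horizontal axis), with circles for libraries of bat 1 and triangles for bat 3. In every brain library the blue point lies above the red one; in liver of bat 1 the order is the reverse.

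Intervals were spread unequally over the scaffolds in the 2 tissues, and both animals showed the same pattern. Of 29 scaffolds, 18 held at least 500 intervals per library on average and together 99.6% of all intervals. The testis share was the larger in both animals on 8 of the 18 and the muscle share on 9. The log2 ratio of testis over muscle had a median size of 0.14, against 0.0362 for the ratio of bat 1 over bat 3. The ratio of the animals had the same sign in both tissues on 8 of the 18.

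Testis intervals were most over-represented on NW_023416288.1, with 2457 and 2488 in testis and 2005 and 1849 in muscle (bat 1 and bat 3). This is a mean log2 ratio of 0.36 ± 0.0954 (SD, n = 2 animals). NW_023416286.1 followed at 0.36 ± 0.118 and NW_023416290.1 at 0.31 ± 0.12 (SD, n = 2 animals each). Muscle intervals were over-represented on NW_023416309.1, with 3070 and 3050 in testis and 3594 and 3935 in muscle, a mean log2 ratio of -0.3 ± 0.0991. On NW_023416292.1 it was -0.19 ± 0.0301 (SD, n = 2 animals each). The size of these ratios depended on list length in either direction. With 25000 and 100000 intervals the mean was 0.32 and 0.14 on NW_023416288.1, 0.22 and 0.19 on NW_023416286.1, and 0.35 and 0.2 on NW_023416290.1. It was -0.23 and -0.15 on NW_023416309.1 and -0.05 and -0.08 on NW_023416292.1, where the animals differed in sign with 25000 intervals. Within each of these 5 scaffolds, both testis values lie on the same side of both muscle values. This largely follows from how they were chosen, as extremes with the same sign in both animals. The ratio had the same sign in both animals on 17 of the 18 larger scaffolds.

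The ratio was most extreme on NW_023416312.1, which had few intervals in any library. It held 536 and 486 intervals in testis and 762 and 1131 in muscle, a mean log2 ratio of -0.86 ± 0.503 (SD, n = 2 animals), and -0.56 in lists of 25000 intervals. Only 37 testis-only regions lay on it against 220 muscle-only regions, so testis-only regions made up 14.4% of the tissue-only regions there, against 30.8% to 59.3% on the other 17. Over its span of 106 Mb, measured to the furthest interval of any library, it had 5.03 and 4.56 intervals per Mb in testis and 7.15 and 10.6 in muscle, while the other 17 scaffolds had 20 to 35.6 per Mb in these libraries. Among the 16 libraries of other tissues it had 7.76 to 14.5 per Mb in brain, 6.54 in liver of bat 3 and 1.13 in liver of bat 1, so both testis libraries and muscle of bat 1 were below all 14 brain libraries and muscle of bat 3 lay among them. The intervals kept there had a median fold of 4.55 and 5.04 in testis against 3.59 and 4.12 over the whole lists. Only intervals that passed the cut on -log10 p enter these medians, so they do not describe the weaker intervals of the scaffold. The muscle libraries of the 2 animals also differed most on this scaffold (log2 ratio of bat 1 over bat 3 -0.57). Which chromosome it belongs to was not analysed here.

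**Figure D4:**
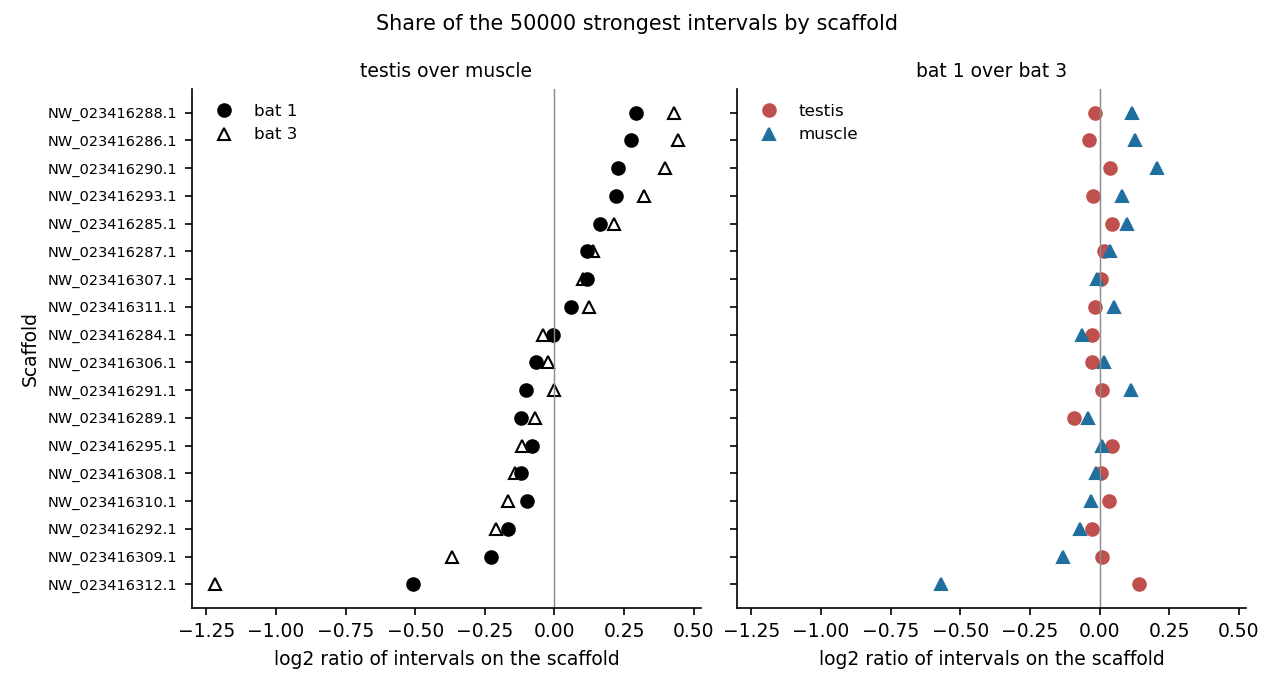
Log2 ratio of the number of intervals on each of the 18 larger scaffolds (horizontal axis), sorted by the mean ratio of testis over muscle. The left panel shows testis over muscle in bat 1 (circles) and bat 3 (triangles), and the right panel bat 1 over bat 3 in testis (circles) and muscle (triangles); NW_023416312.1 is lowest on the left at -0.51 and -1.22, while apart from that scaffold no animal ratio exceeds 0.206 in size.

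Muscle-only regions lay where shared regions were dense and testis-only regions did not. The regions were counted in 1900 windows of 1 Mb, grouped by the number of regions of all 4 libraries in the window. Testis-only regions numbered 6.18 per window in the 141 windows without a shared region and 4 in the 114 windows with 20 or more. Muscle-only regions numbered 0.957 and 10.3 in the same windows. Testis-only regions were thus 86.6% of the tissue-only regions in windows without shared regions and 27.9% in the densest. Regions of bat 1 alone went from 0.397 to 0.886 per window and those of bat 3 alone from 0.0355 to 0.509.

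Lists of 25000 intervals gave 77.4% and 47%.

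The same order was found inside each of the 18 larger scaffolds, where windows with at most 4 shared regions were set against those with at least 10. The testis percentage was the higher in the former on 18 of 18 scaffolds, with medians of 71.3% and 36.2%, and the difference ran from 9.28 to 41.6 percentage points. On NW_023416312.1 it was 19.4% (28 testis-only and 116 muscle-only regions) against 5.71% (2 and 33). Both values are far below those of the other scaffolds, although NW_023416312.1 has only 2.76 shared regions per Mb. Between scaffolds, the testis percentage and the density of shared regions had a Spearman correlation of -0.48 over all 18, and -0.76 over the 17 without NW_023416312.1. The Pearson correlation was 0.0143 over all 18 and -0.715 over the 17, so the linear relation was seen only without that scaffold. Scaffolds share the same 4 libraries, so these are a description.

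The single libraries were then compared in the same windows. Intervals absent from both libraries of the other tissue numbered 12.3 and 13.5 per window in testis of bat 1 and bat 3 in windows without shared regions, and 10.5 and 11.4 in the densest windows, with the highest values, 15.4 and 16.4, in windows with 5 to 9 shared regions. In muscle they rose from 4.57 to 18.3 per window in bat 1 and from 2.36 to 23.8 in bat 3. The testis and muscle values do not overlap in the windows without shared regions or in the densest, and they overlap at 5 to 9 shared regions. The gradient was steeper in muscle of bat 3. Without muscle of bat 3, where an interval in muscle of bat 1 suffices, testis-only regions were 57.4% in the windows without shared regions and 21% in the densest. Without testis of bat 1 or of bat 3 they were 46.5% and 47.4% in the densest windows, and without muscle of bat 1 they were 17.7%, since the tissue with a single library gains regions.

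**Figure D5:**
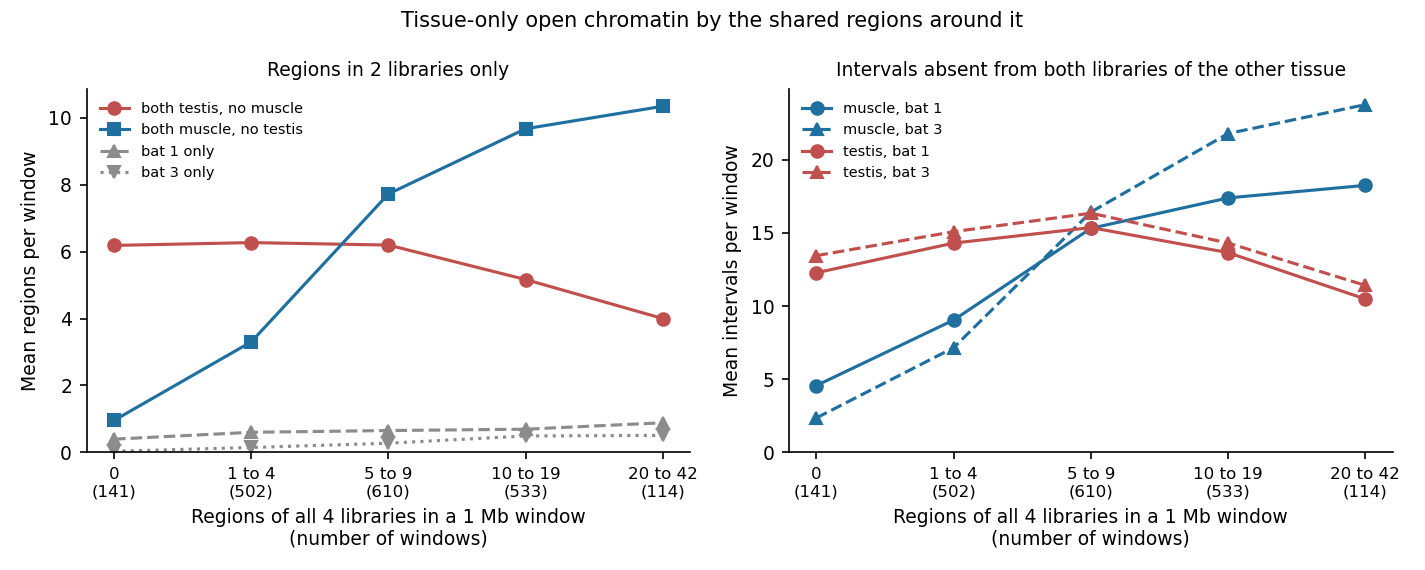
Mean number per 1 Mb window (vertical axes) against the number of regions of all 4 libraries in the window (horizontal axis, number of windows in brackets). The left panel shows regions present in 2 libraries only and the right panel, by library, intervals absent from both libraries of the other tissue; the muscle lines rise from left to right, while the testis lines are higher or level in the middle and end below where they start.

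Spacing differed accordingly. The nearest region of the same class was a median of 47.1 kb away for testis-only regions and 21 kb for muscle-only regions, and 13.3% and 30.3% had one within 10 kb. The nearest shared region was a median of 68.2 kb from a testis-only and 31.7 kb from a muscle-only region.

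Single windows stood out in both directions, chosen after their counts were seen. Between bases 159000001 and 160000000 of NW_023416307.1 there were 29 testis-only regions, 0 muscle-only and 0 shared ones, where testis had 46 and 51 intervals and muscle 6 and 2 (bat 1 and bat 3). A window of the same scaffold from 95000001 to 96000000 had 23 testis-only regions, 1 muscle-only and 0 shared. The highest muscle count was on NW_023416310.1 from 103000001 to 104000000, with 30 muscle-only and 4 testis-only regions, 54 and 67 muscle intervals and 22 and 28 testis intervals. On NW_023416309.1 from 114000001 to 115000000 there were 28 muscle-only regions beside 8 testis-only and 23 shared ones. The median window had 5 testis-only and 6 muscle-only regions.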

How the data were processed

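ATAC-seq nuclei came from cryopreserved tissue, per the labels' protocols. Per the submitters' processing notes, Bowtie2 and MACS2 were used, with no role or version attached. The settings and genome build are not given in any source used here. The authors deposited 1 narrowPeak list per library, with a fold (a ratio over background) and a -log10 p per row. The list of testis of bat 1 has exactly 300000 rows and ends at a -log10 p of 2.8, and the other 3 have 225473 to 277901 and end at 2.

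Rows with the same interval were collapsed, keeping the highest fold and -log10 p, which left 171581 to 238945 intervals. The 50000 with the highest -log10 p were kept. Equal values share their mean rank, and those tied at the lowest value kept (2427 in testis of bat 1, of which 501 were kept) were drawn at random with a fixed seed. Intervals overlapping by at least 1 base were merged (Python 3.11.15, pandas 2.3.3; bedtools 2.31.1 for reciprocal overlap), and coordinates count from 1. Log2 ranks were tested with limma 3.58.1 (R 4.3.3; trend and robust options, 2-sided). The replicate number is that of the bat, so testis and muscle are paired by animal. The bat 1 minus bat 3 differences in log2 rank correlated at -0.00733 between the tissues over 15345 regions.

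On simulated ranks for testis against muscle at 15345 regions, the test called 9, 33, 44 and 49 of 50 regions changed by 2, 3, 4 and 6 log2 units, and 13 unchanged ones. The simulated spread was drawn from limma's own fit and was equal in all 4 libraries of a region. In the data the muscle libraries were less alike than the testis libraries (Spearman 0.77 against 0.895), so recovery there may differ. Merging was tested on simulated lists. Named tissue-only regions are the 6 per direction with the best weaker rank and no deposited interval in the other tissue, named rank differences the 4 largest per direction among those that passed the test over both animals and had the same sign in each, and named scaffolds the 3 highest and 3 lowest of those with the same sign in both animals. Alternatives were list length, ranking by fold, overlap, absence of any interval, each library left out, the block and covered bases. The comparison and its lists were chosen with earlier results of these data known. Windows, re-ranking and the handling of ties were added after the data were seen. Promoters, marker genes and motifs were not analysed here, since the genes have no scaffold in the table used. With 2 samples a group, p-values rest only on the spread between libraries of these animals, moderated by limma over all regions tested. Differences between animals and between libraries cannot be told apart in that spread.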

Additional observations from a re-analysis of the deposited data

Results flagged for a closer look

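The 2 animals differed in opposite directions in the 2 tissues for 5 properties of the lists, each with 1 library per animal and tissue, so the difference was not tested. As bat 1 minus bat 3, the median interval width differed by 103 bases in testis and -324 bases in muscle. Summits per interval differed by 0.288 in testis and -0.87 in muscle, and the length covered by the 50000 strongest intervals by 5.71 Mb in testis and -14.3 Mb in muscle. The lowest -log10 p among these intervals differed by 1.46 in testis and -3.44 in muscle. The number of distinct deposited intervals differed by -8799 in testis and 15723 in muscle. The testis lists do not end alike, at a -log10 p of 2.8 in bat 1 and 2 in bat 3. Whether the sign in testis holds at a common end was not tested.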

How the results depend on the processing

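In the presence counts and the Jaccard index, the tissue values exceeded the animal and crossed ones under every setting run with all 4 libraries, but the values moved. With the 25000 strongest intervals there were 5102 testis-only, 6002 muscle-only, 691 bat 1, 164 bat 3 and 206 and 360 crossed regions (testis of bat 1 with muscle of bat 3 first). With 100000 there were 19128 testis-only, 17997 muscle-only, 3578 bat 1, 2789 bat 3 and 3449 and 2443 crossed regions, and testis-only regions had a median width of 542 bases. Without any deposited interval elsewhere the counts were 5528, 6267, 288, 101, 161 and 105. Reciprocal overlap of 50% counted intervals of 1 library of each pair and not merged regions. It gave 10140 testis-only, 8931 muscle-only and 2156 bat 1 intervals and 1665 of the second crossed kind. Leaving out 1 library gave 11762 to 28379 testis-only, 14329 to 28274 muscle-only, 2861 to 16829 bat 1, 1245 to 17500 bat 3 and 1483 to 16593 and 2150 to 17441 crossed regions. Counts for a pair reduced to 1 library need no second library, so they are not comparable with those of a full pair. The median width was then 340 to 675 bases for testis-only, 302 to 761 for muscle-only and 986 to 1165 for shared regions. The mean Jaccard index for the same tissue, the same animal and crossed pairs was 0.438, 0.26 and 0.264, or 0.4996, 0.332 and 0.335 with 25000 intervals, and 0.276, 0.176 and 0.175 with all. With 100000 it was 0.346 for the same tissue and 0.212 crossed, and ranked by fold 0.42 for the same tissue. In the paired fit with the animal as a replicate block, 675 regions were called for testis and 532 for muscle, with 18 between the animals where the tissue was the block. Centred log2 folds gave 1259 and 562, the 100000 strongest 564 and 592, and re-ranking or 25000 intervals 0 and 0, as between the animals. Leaving out 1 library gave 4 to 3606 for testis, 2 to 1577 for muscle and 0 to 107 between animals; the cause was not tested. In windows without shared regions the testis percentage was 77.4% with 25000 and 80.3% with 100000 intervals, and 57.4% to 94.5% without 1 library. In the densest windows it was 47%, 37.1% and, ranked by fold, 23.4%, and 17.7% to 47.4% without 1 library. With every deposited interval, 58.6% of testis-only and 83.1% of muscle-only regions had one in some brain library. The 6 scaffolds named kept the sign of their mean under every alternative run. On NW_023416292.1 with 25000 intervals the mean was -0.05 ± 0.0826 (SD), and the animals differed in sign. All 12 tissue-only regions named stayed in their class under other list lengths and ranking by fold. This largely follows from how they were chosen, with high ranks and no deposited interval in the other tissue. Of the 8 rank differences named, all were called with the block and without either muscle library, and none after re-ranking. The alternatives for promoters were not run. Depth behind the peaks is unknown, so absence from a list is not absence of open chromatin.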
